A study of Homo sapiens with 12 samples.

Results

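The 9 genes *UST*, *HMGA2*, *MC4R*, *ICAM1*, *ARHGAP6*, *HHIP*, *E2F7*, *IGSF21* and *NPR1* were examined in 2 kinds of human stem cell–derived neuron after knockdown of *SMN1* and *SMN2*, the genes of the survival motor neuron protein. Motor neurons (iMNs) came from a line of induced pluripotent stem cells in which the HB9 promoter drives Td-Tomato. They were patterned with small molecules, including retinoic acid and a smoothened agonist, and sorted by FACS for the reporter. Excitatory glutamatergic neurons, labelled as cortical (i3Ns), came from the embryonic stem cell line H1, in which doxycycline turns on the transcription factor NGN2. Each kind of neuron received lentivirus carrying either a doxycycline-induced shRNA against *SMN1/2* (*SMN*-KD) or a scrambled shRNA (SCR), so SCR neurons also carried vector and drug. There were 3 SCR and 3 *SMN*-KD libraries of ribosomal RNA–depleted total RNA for each kind of neuron, 12 in all. Each kind of neuron rests on 1 stem cell line, so cell type, line and differentiation protocol cannot be told apart.

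The 9 genes were chosen by their symbols, and the list was put together because the authors' own *SMN*-KD against SCR fold changes in these libraries had opposite signs in iMNs and i3Ns. Those fold changes and their p-values are not used here, so the opposite responses were not checked and no direction of response is given for any gene. The value used for each gene is its mean normalized count, the authors' mean over the 6 libraries of a kind of neuron, 3 SCR and 3 *SMN*-KD pooled. A pooled mean carries no SD and no test, and it cannot show how far *SMN* itself was lowered. All 9 symbols were listed once in each table, among 15899 symbols in the iMN table, 18390 in the i3N table and 15666 in both. The lowest mean listed was 7.73 in the iMN table and 1.37 in the i3N table. For a gene with a lower i3N mean than 7.73, absence from the iMN table therefore does not show a difference between the neurons. The authors' filter on low counts is not given, so absence of a gene with a higher i3N mean is not taken as a difference either.

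The 9 genes belong to separate pathways. *UST* encodes uronyl sulfotransferase, which adds sulfate to the uronic acids of dermatan and chondroitin sulfate, the sugar chains of matrix proteoglycans. *HMGA2* encodes a chromatin protein that bends DNA, is abundant in embryonic cells and is repressed by let-7 microRNAs. *E2F7* encodes a repressor of the E2F family that dampens cell cycle genes. *MC4R* encodes the melanocortin receptor through which hypothalamic neurons limit feeding, and *NPR1* the guanylyl cyclase receptor of the cardiac natriuretic peptides. *HHIP* encodes a membrane protein that binds Hedgehog ligands and keeps them from their receptor, and is itself switched on by Hedgehog signaling. *ICAM1* encodes an adhesion protein that holds leukocyte integrins and is induced by NF-κB. *ARHGAP6* encodes a GTPase-activating protein for the small GTPase RhoA. *IGSF21* encodes a synaptic adhesion protein that binds neurexin and organizes inhibitory terminals.

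An shRNA guide can pair through its seed with the 3′-UTR of an mRNA other than its target, so the 3′-UTRs of the 9 genes were searched for matches to both guides. Matches are shown because they are a sequence feature that choosing the genes did not use. Bases of a guide are counted from 1 at its 5′ end. The searched letters, on the mRNA strand only, were CTAATAA for bases 2 to 8 and GCTAATA for bases 3 to 9 of the *SMN* guide, and CTAGTAA and ACTAGTA for the same bases of the scrambled guide. The 2 words for one guide share 6 letters where they overlap. Each line gives 27 bases of the GENCODE 44 transcript on GRCh38, 5′ to 3′ on the mRNA strand, with the match in capitals.
*UST*, *SMN* guide bases 2 to 8, 3′-UTR position 311: agcccctagcCTAATAActtatcattt
*HHIP*, *SMN* guide bases 3 to 9, 3′-UTR position 4058: cgctctctcgGCTAATAtatatgtgta
*HHIP*, scrambled guide bases 3 to 9, 3′-UTR position 4727: caggaagtaaACTAGTActgtgaatgc
*E2F7*, scrambled guide bases 2 to 8, 3′-UTR position 611: attttacaacCTAGTAAtaatgtggat

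These 4 were the only matches in the 9 genes. The *UST* match lies in exon 8 at chr6:149074427-149074433 on the plus strand. The *HHIP* matches lie in exon 13 at chr4:144742015-144742021 and chr4:144742684-144742690, also on the plus strand. The *E2F7* match lies in exon 13 at chr12:77023398-77023404 on the minus strand. A match to either *SMN* guide word was present in 2 of the 9 genes, beside 19.1% of 14108 genes with a 3′-UTR. A match to either scrambled guide word was likewise present in 2 of the 9, beside 11.4%. By single words, the shares of all genes were 15.1% and 8.65% for bases 2 to 8 and 3 to 9 of the *SMN* guide, and 8.0% and 6.32% for those of the scrambled guide. Each word was found in 1 of the 9 genes. The genes without a match, *HMGA2*, *MC4R*, *ICAM1*, *ARHGAP6*, *IGSF21* and *NPR1*, include those with the shortest 3′-UTRs. The 3′-UTR of *IGSF21* is 157 bases long, that of *MC4R* 289 and that of *NPR1* 578, beside a median of 1368 over the 14108 genes. That of *HHIP*, the one gene with matches to both guides, is 7314 bases long.

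**Figure D1:**
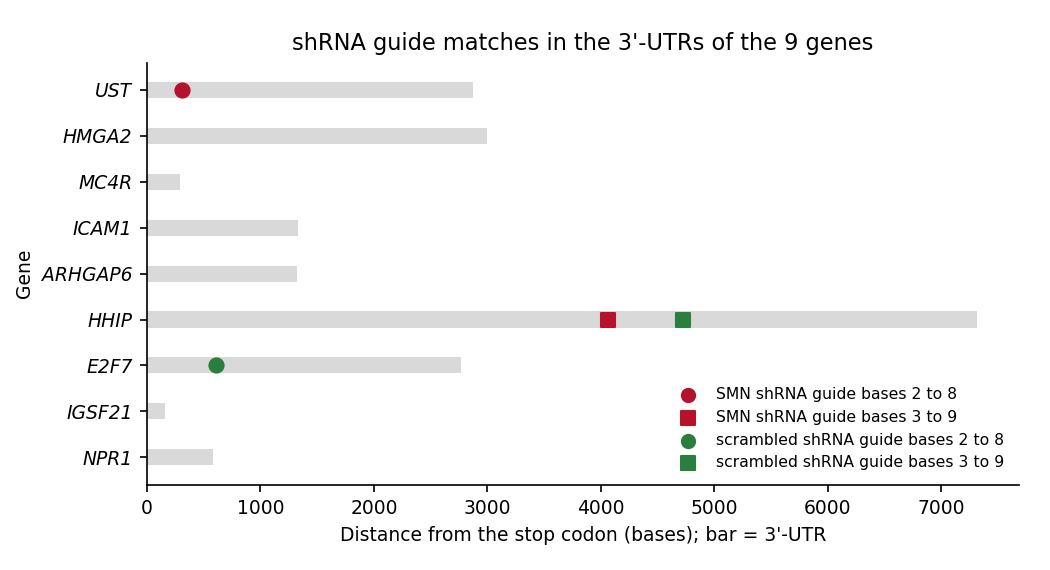
3′-UTRs of the 9 genes (bars, in bases from the stop codon) with 7-base matches to the *SMN* shRNA guide (red) and the scrambled shRNA guide (green). *UST* and *HHIP* hold 1 match each to the *SMN* guide, *E2F7* and *HHIP* 1 each to the scrambled guide, and the other genes none.

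The 9 genes were below the median level of listed genes in both kinds of neuron, and most were lower in i3Ns. None of the 9 exceeded the median mean normalized count of the listed genes, which was 925 in iMNs and 620 in i3Ns. Levels were also divided by the length of the reference transcript and scaled to 1000000 within each table (the length-scaled level). On this scale too none of the 9 exceeded the median, 20.5 in iMNs and 14.99 in i3Ns. The share of listed genes at a lower length-scaled level ran from 9.42% for *E2F7* to 49.5% for *IGSF21* in iMNs. In i3Ns it ran from 9.85% for *HHIP* to 41.1% for *HMGA2*. To set the tables side by side, means were scaled to 1000000 of each table's sum (the scaled count). The tables had been normalized separately by the authors, and without rescaling the median log2 ratio moved by 0.06. By scaled count, *MC4R*, *ICAM1*, *NPR1*, *HHIP*, *IGSF21* and *ARHGAP6* were more than 2-fold higher in iMNs than in i3Ns, while *UST*, *E2F7* and *HMGA2* were within 2-fold and slightly higher in i3Ns. Of the 15666 shared genes, 13.9% were at least 2-fold higher in iMNs and 9.82% at least 2-fold higher in i3Ns, against 6 and 0 of the 9 genes. Among the 6157 shared genes under the median of both tables, which is where all 9 genes lie, the shares were 22.3% and 14.1%. The median log2 ratio, i3N over iMN, was -1.96 over the 9 genes and 0.02 over all shared genes. The list was chosen on responses in the same libraries and holds 9 genes, so these counts describe the list and were not tested.

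**Figure D2:**
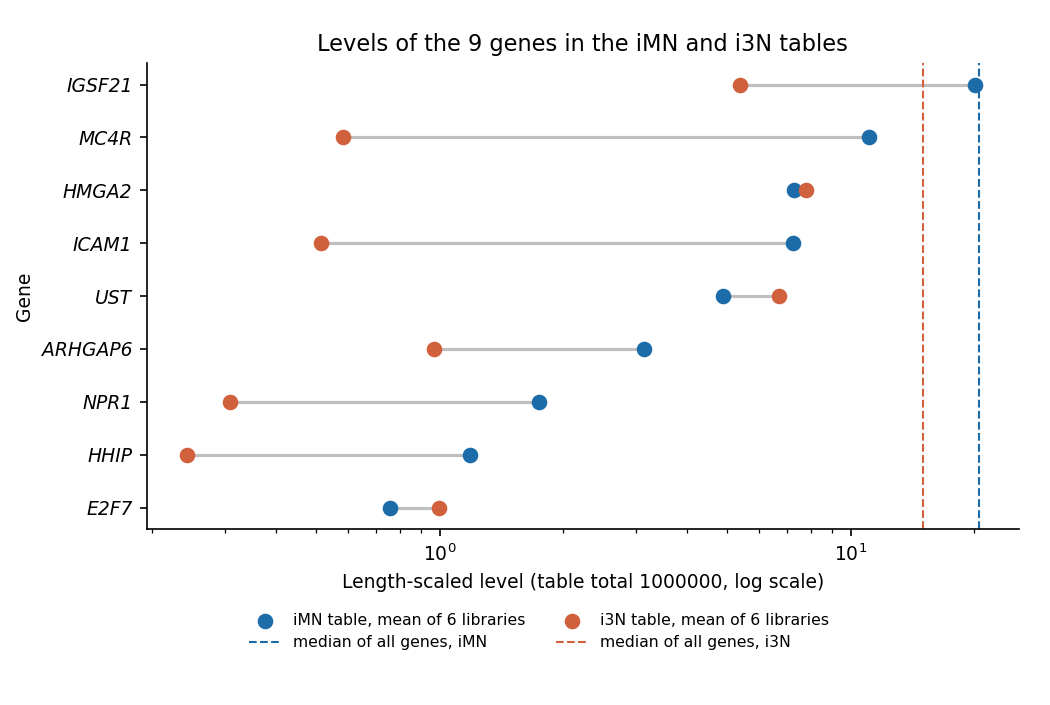
Length-scaled level of each gene (scaled within a table, log axis) in iMNs (blue) and i3Ns (orange), each point the authors' mean of 6 libraries scaled here, with no error available. Dashed lines mark the medians of all genes, 20.5 in iMNs and 14.99 in i3Ns, and every point lies below the line of its own table.

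**Figure D3:**
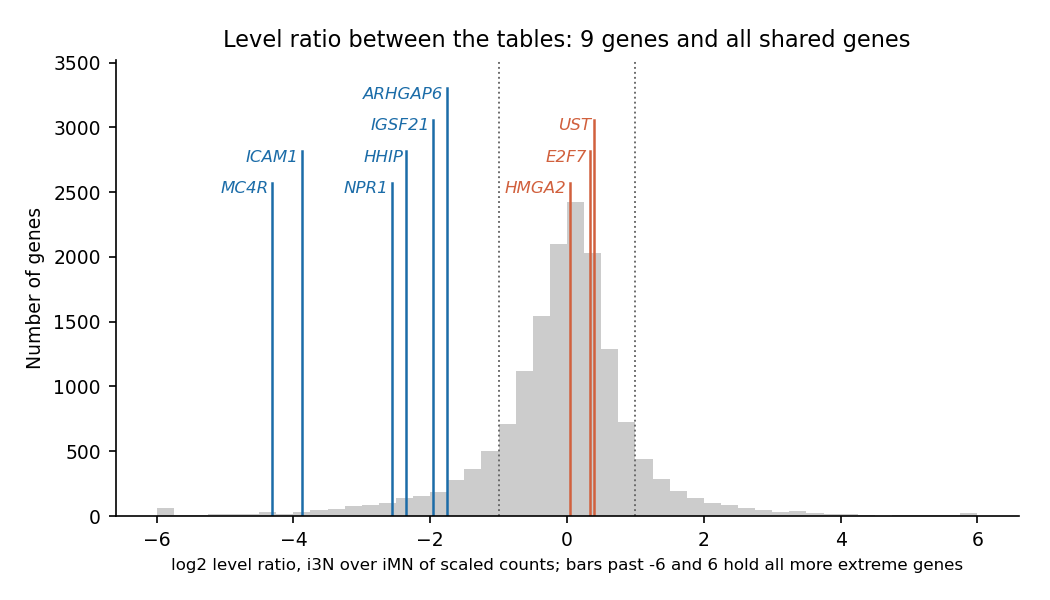
Histogram of the log2 level ratio, i3N over iMN, of the 15666 genes in both tables, with the 9 genes as vertical lines (blue where higher in iMNs, orange where higher in i3Ns) and dotted lines at 2-fold. Lines for 6 genes lie left of the lower 2-fold mark, from *ARHGAP6* at -1.75 to *MC4R* at -4.31, and none lies right of the upper mark.

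Between genes, levels were compared per length only. In iMNs the length-scaled levels ran from 20.1 for *IGSF21* through 11.1 for *MC4R*, 7.28 for *HMGA2*, 7.26 for *ICAM1*, 4.89 for *UST*, 3.14 for *ARHGAP6*, 1.75 for *NPR1* and 1.19 for *HHIP* to 0.758 for *E2F7*. The highest was 26.5 times the lowest. In i3Ns the order was another, with *HMGA2* at 7.78, *UST* at 6.71, *IGSF21* at 5.39, *E2F7* at 0.997, *ARHGAP6* at 0.968, *MC4R* at 0.581, *ICAM1* at 0.515, *NPR1* at 0.309 and *HHIP* at 0.242. The highest was 32.1 times the lowest. *E2F7* was last in iMNs but stood above *ARHGAP6*, *MC4R*, *ICAM1*, *NPR1* and *HHIP* in i3Ns, and *MC4R* stood below *IGSF21* alone in iMNs but also below *HMGA2*, *UST*, *E2F7* and *ARHGAP6* in i3Ns. With pooled means alone, no pair of neighbors in either order can be said to differ beyond the spread between libraries.

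The largest gap between the kinds of neuron was that of *MC4R*, a gene with a single exon (chr18:60371062-60372775, minus strand). Its mean normalized count was 267 in iMNs and 13.9 in i3Ns, which was 19.9-fold higher in iMNs by scaled count. Only 0.855% of shared genes had a lower i3N over iMN ratio. Since both groups have 3 libraries, neither group's mean can exceed 2 times the pooled mean. Neither SCR nor *SMN*-KD i3Ns thus averaged above 27.9, which is below the pooled iMN mean of 267. The pooled iMN mean holds any response to knockdown, and 1 of its groups could lie well below 267. The bound therefore does not show that SCR and *SMN*-KD iMNs each exceeded i3Ns. The same limit holds for the bounds given for other genes below. Of the 12 melanocortin genes listed with *MC4R*, the ligand gene *POMC*, the antagonist genes *AGRP* and *ASIP*, the receptor genes *MC2R*, *MC3R* and *MC5R* and the accessory gene *MRAP* were listed in neither table. The receptor gene *MC1R* was listed at mean normalized counts of 701 in iMNs and 676 in i3Ns. *MRAP2*, whose protein tunes MC4R, was at 157 and 129. The prohormone-processing genes *PCSK1*, at 9053 and 4123, and *CPE*, at 15817 and 26395, were above the length-scaled median in both tables. *SIM1*, a transcription factor gene of the *MC4R*-bearing hypothalamic neurons that was singled out after its values were seen, was far lower in iMNs, at 25.5 against 1888, which is the other direction to *MC4R*.

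*NPR1*, the other peptide receptor (chr1:153678688-153693992, plus strand, 22 exons), had a mean normalized count of 102 in iMNs and 18.1 in i3Ns and was 5.89-fold higher in iMNs by scaled count. No group of i3Ns can have averaged above 36.2. The genes around it mostly ran the other way, since 7 of the 9 natriuretic peptide and cyclic GMP genes listed in both tables were at least 2-fold higher in i3Ns and 1 in iMNs. *PRKG1*, a cyclic GMP–dependent kinase gene, was at 1446 in iMNs and 9988 in i3Ns. The ligand gene *NPPA* was listed in neither table. *NPPB* was listed in the i3N table only, at 1.69, which is below the lowest mean listed in iMNs. *NPPC*, which encodes the ligand of the related receptor NPR2 and was singled out after its values were seen, was the gene of the list that was higher in iMNs, at 500 against 63.6. The processing proteases were at 35.4 and 76.1 for *CORIN* and at 2385 and 2656 for *FURIN*.

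*HHIP* (chr4:144646156-144745271, plus strand, 13 exons) had a mean normalized count of 165 in iMNs and 33.7 in i3Ns and was 5.09-fold higher in iMNs by scaled count. Its i3N group means cannot exceed 67.4. Of 15 Hedgehog pathway genes, 13 were listed in the iMN table and all 15 in the i3N table. Of the 13 in both, 2 were at least 2-fold higher in iMNs and 2 in i3Ns. The ligand gene *IHH* was listed in the i3N table only, at 5.18, which is below the lowest mean listed in iMNs. *GLI1*, the transcription factor gene that serves as the usual readout of the pathway, was listed at 13.4 in i3Ns and not listed in iMNs. *PTCH1*, which encodes the Hedgehog receptor and is a target as well, was at 1593 in iMNs and 2061 in i3Ns, and the coreceptor gene *CDON* at 1399 and 1827. Unlike *HHIP*, neither *GLI1* nor *PTCH1* was listed at a higher level in iMNs. *GLI2* and *GLI3*, singled out after their values were seen, differed in opposite directions, at 242 and 87.0 for the activator *GLI2* and at 56.4 and 205 for *GLI3*, best known as a repressor.

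*ICAM1* (chr19:10271093-10286615, plus strand, 7 exons) had a mean normalized count of 301 in iMNs and 21.4 in i3Ns and was 14.6-fold higher in iMNs by scaled count. Only 1.12% of shared genes had a lower i3N over iMN ratio, and no i3N group can have averaged above 42.8. The NF-κB subunit gene *RELA* and the inhibitor gene *NFKBIA* were close in both, at 1639 and 1754 and at 811 and 677. The integrin genes *ITGAL*, *ITGAM* and *ITGB2*, whose products bind ICAM1 on leukocytes, were not listed in the iMN table and stood at 3.26, 3.47 and 4.48 in the i3N table. These i3N means are below the lowest mean listed in iMNs, 7.73. *ICAM2* and *ICAM4* were listed in neither table, and *VCAM1*, another adhesion gene induced by NF-κB, was listed in i3Ns only, at 64.5. The subunit genes *NFKB1* and *NFKB2* were also close, at 640 and 589 and at 152 and 152. *RELB* and *TNFAIP3* of the same list, like those 2 singled out after their values were seen, were higher in iMNs, at 367 against 119 and at 254 against 89.1. They were the 2 genes of the 8 in both tables that were at least 2-fold higher in iMNs, and *ICAM3*, at 8.59 and 18.5, was the 1 that was at least 2-fold higher in i3Ns.

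*ARHGAP6* (chrX:11117651-11665920, minus strand, 13 exons) had a mean normalized count of 235 in iMNs and 72.3 in i3Ns and was 3.37-fold higher in iMNs by scaled count, with i3N group means of at most 145. All 11 genes of its pathway list, of RhoA and its relatives and of proteins that act on RhoA, were in both tables, and 1 was at least 2-fold higher in iMNs and 1 in i3Ns. *RHOB*, a relative of RhoA, was at a mean normalized count of 14827 in iMNs and 22945 in i3Ns, and *ARHGAP35*, the gene of p190RhoGAP, at 19811 and 25466. The GTPase-activating protein genes *ARHGAP18* and *STARD13* were at 122 and 204 and at 517 and 299.

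*IGSF21* (chr1:18107798-18378483, plus strand, 10 exons) was the most abundant of the 9 genes per length in iMNs. Its mean normalized count was 532 in iMNs and 143 in i3Ns, 3.88-fold higher in iMNs by scaled count, and no i3N group can have averaged above 285. On the length-scaled scale, 11 of 12 genes of inhibitory synapse organization were above the median in iMNs and 8 of 12 in i3Ns, and 4 were at least 2-fold higher in iMNs and 0 in i3Ns. *NRXN2*, whose product is the neurexin that IGSF21 binds, was at 27200 in iMNs and 17332 in i3Ns. *SLITRK3*, an organizer of inhibitory synapses from the receiving side that was singled out after its values were seen, differed most, at 3886 and 429.

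The 3 genes that were close in both kinds of neuron were *UST*, *HMGA2* and *E2F7*. *UST* (chr6:148747030-149076990, plus strand, 8 exons) had a mean normalized count of 307 in iMNs and 422 in i3Ns, 1.32-fold higher in i3Ns by scaled count. Of the 14 other chondroitin and dermatan sulfate genes listed in both tables, 3 were at least 2-fold higher in iMNs and 2 in i3Ns. Among them, *CHSY1*, a chain polymerase gene, was at 2366 and 3535, its partner *CHPF* at 6420 and 3304, and the sulfotransferase genes *CHST7* and *CHST14* at 150 and 107 and at 67.0 and 143. *CHST13* was listed in neither table. *CSGALNACT1*, which starts chondroitin chains and was singled out after its values were seen, differed most, at 604 and 30.99.

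*HMGA2* (chr12:65824460-65966291, plus strand, 5 exons) had a mean normalized count of 420 in iMNs and 448 in i3Ns, 1.03-fold higher in i3Ns by scaled count, and 51.4% of shared genes had a lower ratio. The let-7 circuit around it was not as even. Of 8 genes, 3 were at least 2-fold higher in i3Ns and 0 in iMNs. *LIN28A*, whose product blocks let-7 maturation, was at 215 in iMNs and 4216 in i3Ns. The other 2 genes, *LIN28B* and *TRIM71*, singled out after their values were seen, were at 1176 and 9184 and at 1675 and 15998. The RNA-binding genes *IGF2BP1* and *IGF2BP3* were at 7034 and 11601 and at 2743 and 3965, and *DICER1*, which encodes the enzyme that cuts microRNA precursors, at 14916 and 20810.

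*E2F7* (chr12:77021248-77065569, minus strand, 13 exons) was the least abundant of the 9 per length in iMNs. Its mean normalized count was 60.7 in iMNs and 79.9 in i3Ns, 1.26-fold higher in i3Ns by scaled count. Its closest relative *E2F8* was listed in the i3N table only, at 12.5, and *E2F2* was at 73.2 and 34.3. The pocket protein gene *RB1*, at 2165 and 3301, and *TFDP1*, the gene of a partner of the activating E2F proteins, at 2230 and 3657, were far higher than *E2F7* per length too, with length-scaled levels of 32.5 and 49.5 for *RB1* and 60.4 and 99.0 for *TFDP1*. Of the 11 genes of the family in both tables, 1 was at least 2-fold higher in iMNs and 2 in i3Ns.

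**Figure D4:**
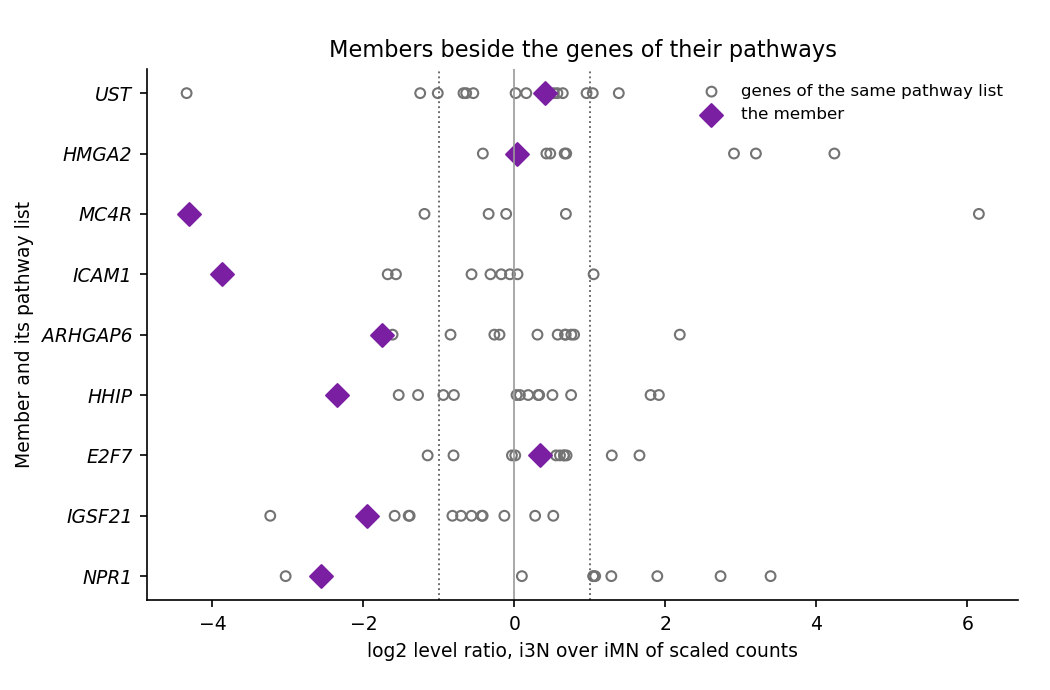
Log2 level ratio, i3N over iMN, of scaled counts, for each of the 9 genes (diamonds) and for the genes of its pathway list present in both tables (open circles), with dotted lines at 2-fold. *MC4R*, *ICAM1*, *ARHGAP6* and *HHIP* lie left of every gene of their lists, *NPR1* and *IGSF21* lie among the lowest of theirs, and *UST*, *HMGA2* and *E2F7* lie within theirs.

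Whether the 9 genes come from neurons or from other cells in these cultures was not tested, and the levels of cell type markers are given beside them. Bulk libraries cannot tell fewer cells of a type from less RNA per cell. All 11 pan-neuronal markers exceeded the length-scaled median in both tables. Their summed scaled count was 15653 in iMNs and 23543 in i3Ns. Even so, 6 of the 11 were higher in iMNs and 5 in i3Ns, and their median log2 ratio, i3N over iMN, was -0.004. The highest in i3Ns were *NEFL* and *NEFM*, singled out after their values were seen. They were at 2759 and 999 scaled counts in iMNs and at 7768 and 6645 in i3Ns. The lowest of the 11 per length, *RBFOX3*, had a length-scaled level of 42.6 in iMNs and 30.5 in i3Ns. Each of the 9 genes was thus below every pan-neuronal marker in both. Of 9 motor neuron markers, all listed in both, 4 exceeded the length-scaled median in iMNs and 7 in i3Ns, which goes against the labels in part. The kind of neuron of each table was taken from the table's name, and every direction given between iMNs and i3Ns rests on it. *MNX1*, the gene of HB9, on whose promoter the iMNs were sorted, was at a mean normalized count of 430 in iMNs and 2279 in i3Ns, and *ISL1*, *ISL2*, *LHX3* and *LHX4* were also higher in i3Ns, *ISL1* at 1663 and 14299. The cholinergic genes *SLC18A3* and *SLC5A7* were higher in iMNs, at 3115 against 1865 and at 8460 against 2472, whereas *CHAT* was close, at 533 and 527. Of 11 cortical glutamatergic markers, 8 were listed in iMNs and 10 in i3Ns, with 2 and 7 above the length-scaled median. They were mostly higher in i3Ns, with *SLC17A7* at 50.1 in iMNs and 6490 in i3Ns and *TBR1* at 10.2 and 1801, and their summed scaled count was 252 and 708.

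Markers of other cells were low, with exceptions in both tables. On the length-scaled scale, only *SLC1A2* exceeded the median among the 4 astrocyte markers listed in each table. These markers summed to 233 and 162 scaled counts, of which *SLC1A2* alone held 230 and 159. *GFAP* and *AQP4* were listed in neither table. Of 10 fibroblast and mesenchymal markers, 8 were listed in iMNs and 10 in i3Ns, with 1 and 2 above the median. *THY1* was above it in both tables and *COL1A1* in i3Ns only. The list summed to 151 and 214 scaled counts, of which *THY1* held 89.9 and 74.5 and *COL1A1* 30.5 and 93.9. *COL1A1* was at a mean normalized count of 1321 in iMNs and 4228 in i3Ns. *DCN* was not listed in iMNs and was at 3.89 in i3Ns, below the lowest mean listed in iMNs. Endothelial markers summed to 0.773 and 1.99 scaled counts, with *CDH5* listed in neither table. Microglia and blood markers summed to 3.03 and 1.75 scaled counts, with *AIF1* and *CSF1R* listed in neither. *PTPRC* was listed in i3Ns only, at 6.05, below the lowest mean listed in iMNs. Schwann cell and neural crest markers summed to 2.47 and 7.65 scaled counts, smooth muscle and pericyte markers to 17.3 and 31.2, epithelial markers to 29.4 and 53.1, and oligodendrocyte markers to 8.20 and 23.8, with *SOX10* listed in neither table. The epithelial marker *KRT8* exceeded the length-scaled median in both, at 32.4 in iMNs and 58.5 in i3Ns. In i3Ns only, *EPCAM* at 30.8, *ACTA2* of smooth muscle at 30.9 and the oligodendrocyte marker *MBP* at 24.8 also exceeded it. Where they exceeded the median, these 4 markers were above each of the 9 genes. The neural progenitor markers, all 9 of them listed in both tables, summed to 163 and 707 scaled counts, of which *NES* made up most. *NES* exceeded the length-scaled median in both tables and *NKX6-1* in i3Ns only, and *PAX6* was at mean normalized counts of 234 and 102.

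Markers of dividing and of pluripotent cells are set beside *E2F7*, a cell cycle gene, and *HMGA2*, an embryonic one. The 8 proliferation markers summed to 8.94 scaled counts in iMNs, with 6 listed, and to 35.01 in i3Ns, with all 8 listed and none above the median in either table. Of the 6 in both tables, 4 were at least 2-fold higher in i3Ns and 0 in iMNs. *MKI67* differed most, at a mean normalized count of 28.3 in iMNs and 522 in i3Ns. By scaled count, *TOP2A* was 13.3-fold, *BUB1* 4.14-fold and *CCNA2* 2.77-fold higher in i3Ns. *PLK1*, at 95.8 and 134, and *CCNB1*, at 162 and 249, differed least, 1.34-fold and 1.48-fold higher in i3Ns. The 1.26-fold of *E2F7* was below that of each of the 6. These comparisons were singled out after the values were seen. Pluripotency markers summed to 4.96 and 99.0 scaled counts, nearly all of it *LIN28A*. *POU5F1* and *NANOG* were not listed in iMNs and were at 34.4 and 7.73 in i3Ns. The *NANOG* mean is just under the lowest mean listed in iMNs. Single markers of these other cells differed in both directions. Those named next were singled out after their values were seen. By scaled count, *FABP7* of the progenitor list was 19.9-fold and *CNN1* of the smooth muscle list 14.1-fold higher in iMNs. *KRT19* of the epithelial list was 6.77-fold and *POSTN* of the mesenchymal list 5.15-fold higher there. From the same lists, *OLIG2* was 16.9-fold, *ACTA2* 6.94-fold, *EPCAM* 2.63-fold and *PDGFRB* 8.62-fold higher in i3Ns. Of the progenitor markers in both tables, 3 were higher in iMNs and 6 in i3Ns. The like counts were 1 and 4 for smooth muscle, 2 and 4 for epithelial and 3 and 5 for mesenchymal markers. The part of these markers in the levels of the 9 genes was not tested. In all, 21 of the 76 markers listed in iMNs and 35 of the 94 listed in i3Ns exceeded the length-scaled median.

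**Figure D5:**
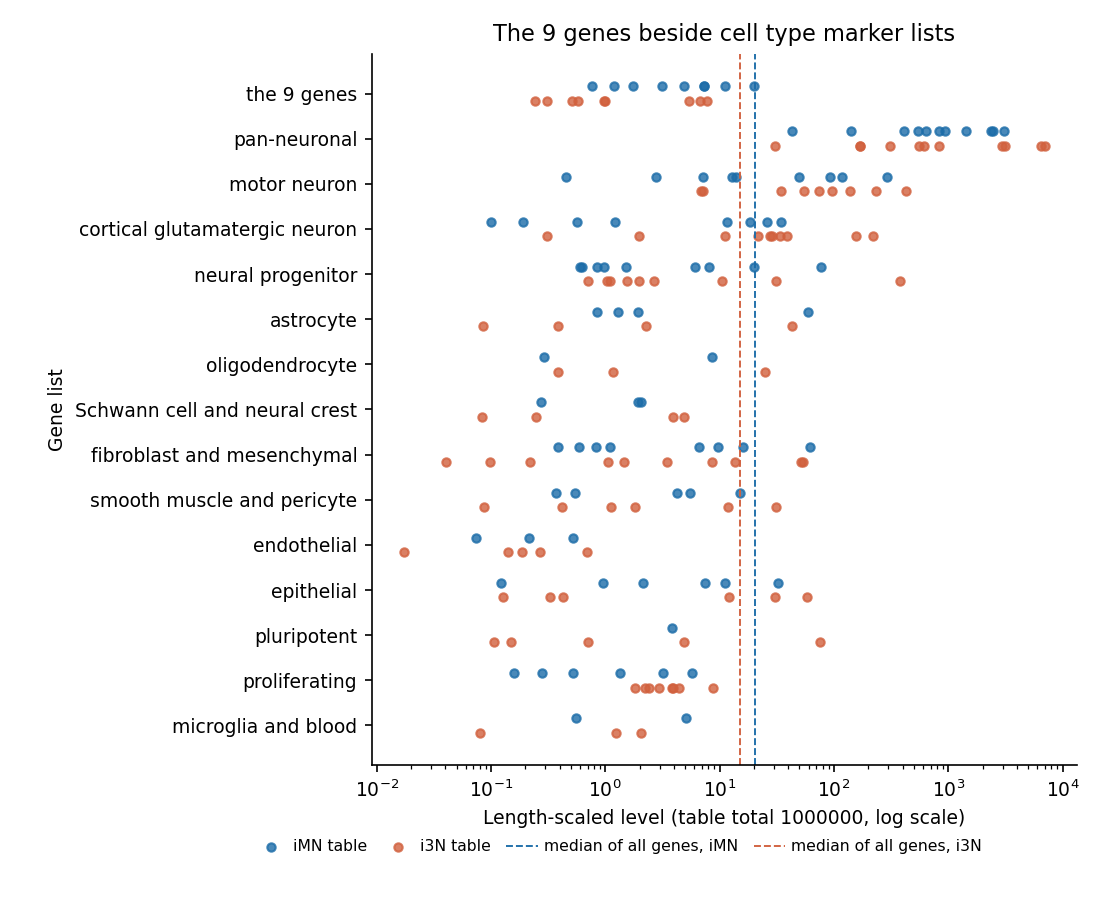
Length-scaled levels (scaled within a table, log axis) of the 9 genes and of each cell type marker list, in iMNs (blue) and i3Ns (orange), each point 1 gene. The 9 genes lie below all 11 pan-neuronal markers in both tables.

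Some of the 9 loci are shared with other transcripts. Exons of the antisense genes *UST-AS1*, *HMGA2-AS1* and *HHIP-AS1*, and of *LIMASI* and *ICAM4-AS1* at *ICAM1*, overlap exons on the opposite strand. None of them was listed in either table. All are annotated as lncRNA, of which only 13 were listed in the iMN table and 20 in the i3N table. Their absence therefore does not show that they were not transcribed. *HCCS*, at 1740 in iMNs and 1214 in i3Ns, overlaps *ARHGAP6* on the opposite strand without shared exons. A protein-coding gene without a symbol overlaps *HHIP* in the same way, at 18.8 in iMNs and 42.6 in i3Ns. The sources used here do not state whether the libraries kept strand, so reads of an antisense transcript and of its partner may not be separable for *UST*, *HMGA2*, *HHIP* and *ICAM1*.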

How the data were processed

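RNA-seq of 12 libraries, 3 SCR and 3 *SMN*-KD for each of iMNs and i3Ns, was analysed from 2 tables. The authors trimmed reads with fastp, quantified transcripts with Salmon and used DESeq2. Versions, annotation, strand and the filter on low counts are not given in the sources used here. The submitters' processing notes also name STAR and hg38. The deposited signal averages, for each gene, size factor–normalized counts of all 6 libraries and gives no value per library, so the depth of each library is unknown and no interval can be given. The tables sum to 43320593 (iMN) and 45043437 (i3N) mean normalized counts over 16406 and 19016 identifiers, and the lowest means are 7.73 and 1.37. The tables also hold the authors' log2 fold changes, standard errors, p-values and adjusted p-values, which were not used. A quasi-likelihood test on counts had been planned and could not be run.

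Means were summed by symbol, scaled to 1000000 per table and, between genes, divided by the length of the GENCODE 44 reference transcript (GRCh38) with Python 3.11.15 and pandas 2.3.3. Of the identifiers, 693 and 878 are outside that annotation. The guide words follow from the shRNA targets in the paper's methods. All 9 genes are named. From each pathway list, the 2 highest and the 2 lowest are named, and any gene not listed in a table. This choice used the scaled count summed over both tables, not divided by length. Some genes picked by this rule are not reported here. The members and lists were chosen with earlier results of these data known. The steps were tested on simulated data. Alternatives changed the genes that set the median, the division by length, the scaling between tables and the handling of repeated symbols.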

Additional observations from a re-analysis of the deposited data

How the results depend on the processing

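None of the 9 genes exceeded the median of either table when only genes with a mean of at least 10, only protein-coding genes or levels per kilobase were used. *UST*, *HMGA2* and *E2F7* were higher in i3Ns and the other 6 in iMNs under all 4 alternative scalings tried: deposited means, the median ratio of shared genes set to 1, rescaling after division by length, and the highest identifier per symbol. The log2 ratio of *HMGA2* ran from 0.02 to 0.10 over them and that of *MC4R* from -4.33 to -4.26. Markers above the median numbered 21 to 23 in iMNs and 33 to 37 in i3Ns. No paired analysis was possible because each table holds 1 mean over SCR and *SMN*-KD libraries. For the same reason no replicate could be left out, and no difference between kinds of neuron could be set against the spread between libraries. Means are least certain for the lowest genes, and *MC4R*, *NPR1* and *ICAM1* lie between 13.9 and 21.4 normalized counts in i3Ns.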
